A study of Mus musculus with 4 samples.

Results

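The liver makes most of the proteins that clot blood, that hold clotting in check and that dissolve the clot again, and 32 genes of this system were described in livers of mice with and without AApoAII amyloidosis, in which apolipoprotein A-II is deposited as fibrils, and with and without interval training (IT). The genes were picked by symbol, and all 32 were found among the 35275 genes of the count table. They fall into 7 roles: the vitamin K-dependent factors F2, F7, F9 and F10, the cofactors F5 and F8 with tissue factor (F3), the contact system (F11, F12, Klkb1, Kng1, Kng2), the fibrin clot (Fga, Fgb, Fgg, F13a1, F13b), the anticoagulants (Serpinc1, Serpind1, Serpina10, Proc, Pros1, Proz, Tfpi, Thbd), plasminogen (Plg) with its activators (Plat, Plau, Plaur), and the inhibitors and modulators of fibrinolysis (Serpinf2, Cpb2, Hrg).

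In clotting, a chain of proteases ends in thrombin, the product of F2, which cuts fibrinogen into fibrin, and factor XIII then cross-links the fibrin. Antithrombin, heparin cofactor II and the protein C pathway restrain thrombin and its cofactors, and plasmin, released from plasminogen by its activators, cuts the clot. Fibrinogen is built from an α, a β and a γ chain, encoded by Fga, Fgb and Fgg, and it is a classical acute phase protein whose synthesis in hepatocytes is raised by interleukin-6 through STAT3 and C/EBP factors. Thrombomodulin (Thbd), tissue factor pathway inhibitor (Tfpi) and factor VIII (F8), by contrast, are known mainly as products of endothelial cells, and the A subunit of factor XIII (F13a1) of megakaryocytes and macrophages.

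The study asked how IT bears on amyloid deposition. The mice were females that carried Apoa2c, the amyloidogenic allele of the apolipoprotein A-II gene. The sample labels give the strain as AKR/J, whereas the methods of the study give R1.P1-Apoa2c on a SAMR1 background. In the 4 groups, VS was given vehicle and stayed sedentary, VI was given vehicle and IT, FS was given AApoAII fibrils intravenously and stayed sedentary, and FI was given fibrils and IT. All mice were 26 weeks old after the 16 weeks of training, and 4 mice per group were pooled before RNA extraction, so the 16 mice gave 1 library per group and no value has a replicate error.

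The 3 fibrinogen genes lie next to each other on chromosome 3 in mm10, Fgg at 83007859 to 83015053, Fga at 83026153 to 83033615 and Fgb, on the opposite strand, at 83042247 to 83049803, with 11.1 kb between Fgg and Fga and 8.63 kb between Fga and Fgb. Their promoters are shown because these 3 chains had the largest ratios in FS versus VS among the abundant genes of the group and stood in the same order of libraries. Each sequence runs 5′ to 3′ over 300 bases around the RefSeq start, of which the last 50 lie after it, on GRCm38.p6, and capitals mark matches, on either strand, to 4 short motifs of liver and acute phase promoters, explained after the sequences. The windows are chr3:83025903-83026202 on the plus strand for Fga, chr3:83049814-83050113 on the minus strand for Fgb and chr3:83007474-83007773 on the plus strand for Fgg.
Fga: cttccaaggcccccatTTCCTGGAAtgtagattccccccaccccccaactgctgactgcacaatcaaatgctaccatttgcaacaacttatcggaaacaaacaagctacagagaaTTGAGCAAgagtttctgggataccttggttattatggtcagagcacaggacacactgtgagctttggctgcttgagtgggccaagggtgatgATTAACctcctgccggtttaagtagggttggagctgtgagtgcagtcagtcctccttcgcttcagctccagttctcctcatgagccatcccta
Fgb: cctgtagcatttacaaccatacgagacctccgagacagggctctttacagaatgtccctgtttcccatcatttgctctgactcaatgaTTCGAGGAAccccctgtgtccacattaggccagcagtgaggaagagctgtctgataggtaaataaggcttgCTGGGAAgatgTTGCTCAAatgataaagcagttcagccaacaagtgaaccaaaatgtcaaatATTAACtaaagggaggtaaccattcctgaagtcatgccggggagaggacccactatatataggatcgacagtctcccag
Fgg: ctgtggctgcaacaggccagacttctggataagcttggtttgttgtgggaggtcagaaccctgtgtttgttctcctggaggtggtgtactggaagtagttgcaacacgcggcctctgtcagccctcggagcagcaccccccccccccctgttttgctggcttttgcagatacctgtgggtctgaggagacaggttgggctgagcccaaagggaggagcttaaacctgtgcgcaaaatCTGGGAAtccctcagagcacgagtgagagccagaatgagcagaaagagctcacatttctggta

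The motifs were CTGGGAA, the site bound by STAT3 in acute phase genes, TTCNNNGAA, the STAT palindrome, TTGCNNAA, a core of C/EBP sites, and GTTAAT, a core of HNF1 sites. CTGGGAA can overlap TTCNNNGAA by several bases, and the reverse complements searched were TTCCCAG, TTNNGCAA and ATTAAC, the palindrome being its own. The Fgb window held all 4, with TTCGAGGAA at −162 from the start, CTGGGAA at −91, TTGCTCAA at −80 and ATTAAC at −29. The Fga window held TTCCTGGAA at −234, TTGAGCAA at −135 and ATTAAC at −43, and the Fgg window held only CTGGGAA at −13. Positions count from the RefSeq start. For Fgb and Fgg the windows stop upstream of the starts in the count table, at 83049803 and 83007859, and the bases between were not searched. Of the 25 of the 32 genes with an entry among the RefSeq promoters, CTGGGAA stood in 5 (F9, Fgb, Fgg, Kng2, Tfpi), TTCNNNGAA in 4 (F9, Fga, Fgb, Pros1), TTGCNNAA in 10 and GTTAAT in 5. Among all 32851 windows of the same 300 bases, these motifs matched in 11.1%, 8.30%, 10.8% and 7.10%. A match describes the letters of a window and no binding was measured.

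Total counts were between 23442935 in VS and 28814802 in FS, and levels are given as CPM (counts per 1e+06, after TMM scaling, with factors between 0.975 and 1.02). A count of 0 allows up to 3 counts, which is between 0.102 and 0.127 CPM. The 8 hepatocyte markers summed to between 151220 and 174706 CPM, with none at 0. Summed CPM of 11 Kupffer cell or macrophage markers was 360, 422, 570 and 545 in VS, VI, FS and FI, and that of 10 neutrophil markers was 2.84, 3.53, 18.8 and 14.0. Of these 10, only 3 reached 1 CPM in a library. Prtn3 alone was at 0.593, 1.11, 13.1 and 10.1 CPM, which is most of the neutrophil sum in FS and FI. The VS library stood apart in 10 skeletal muscle markers, which summed to 70.2 CPM there, 8.95 in VI, 0.948 in FS and 0.703 in FI, with Tnnc2 at 0 in every library. VS enters FS versus VS and VI versus VS, whereas FI versus VI and FI versus FS do not contain it.

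Most of the clotting genes were abundant, and fibrinogen alone made up a larger share of all counts in fibril-injected livers. Of the 32 genes, 21 had at least 100 CPM in every library, 3 (F11, Klkb1, Pros1) lay between 10 and 100 CPM in at least one, and 8 (F3, F8, F13a1, Tfpi, Thbd, Plat, Plau, Plaur) were under 10 CPM in at least one. All 32 together took 2.93%, 3.39%, 4.60% and 4.05% of the counts in VS, VI, FS and FI. Fga, Fgb and Fgg took 1.12%, 1.54%, 2.69% and 2.26%, which is 38.1%, 45.6%, 58.6% and 55.7% of the counts of the 32 genes. The share of albumin (Alb), given for scale, was between 12.1% and 13.6%.

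Per listed length (FPKM, counts per kilobase and per 1e+06 counts), Fgb led in every library, followed by Fgg. Fgb was at 2440, 3345, 6038 and 4644 FPKM in VS, VI, FS and FI. In VS, plasminogen (Plg, 1178 FPKM) and Fga (1167 FPKM) came next and did not differ beyond their 95% counting intervals. In VI, FS and FI, Fga followed Fgg, at 1670, 2771 and 2516 FPKM, and Kng1, Plg and Serpinc1 came next in this order. The FPKM ratio of Fgb to Fga was between 1.85 in FI and 2.18 in FS, and that of Fgb to Fgg was 1.18, 1.21, 1.23 and 1.12 in VS, VI, FS and FI, so the balance of the 3 chains shifted far less than their levels. At the lower end, F11 (14.4 FPKM) and Pros1 (13.4 FPKM) did not differ beyond counting error in VS, nor did F8 (0.698 FPKM), Thbd (0.630 FPKM) and Plau (0.619 FPKM), each with its neighbour.

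**Figure D1:**
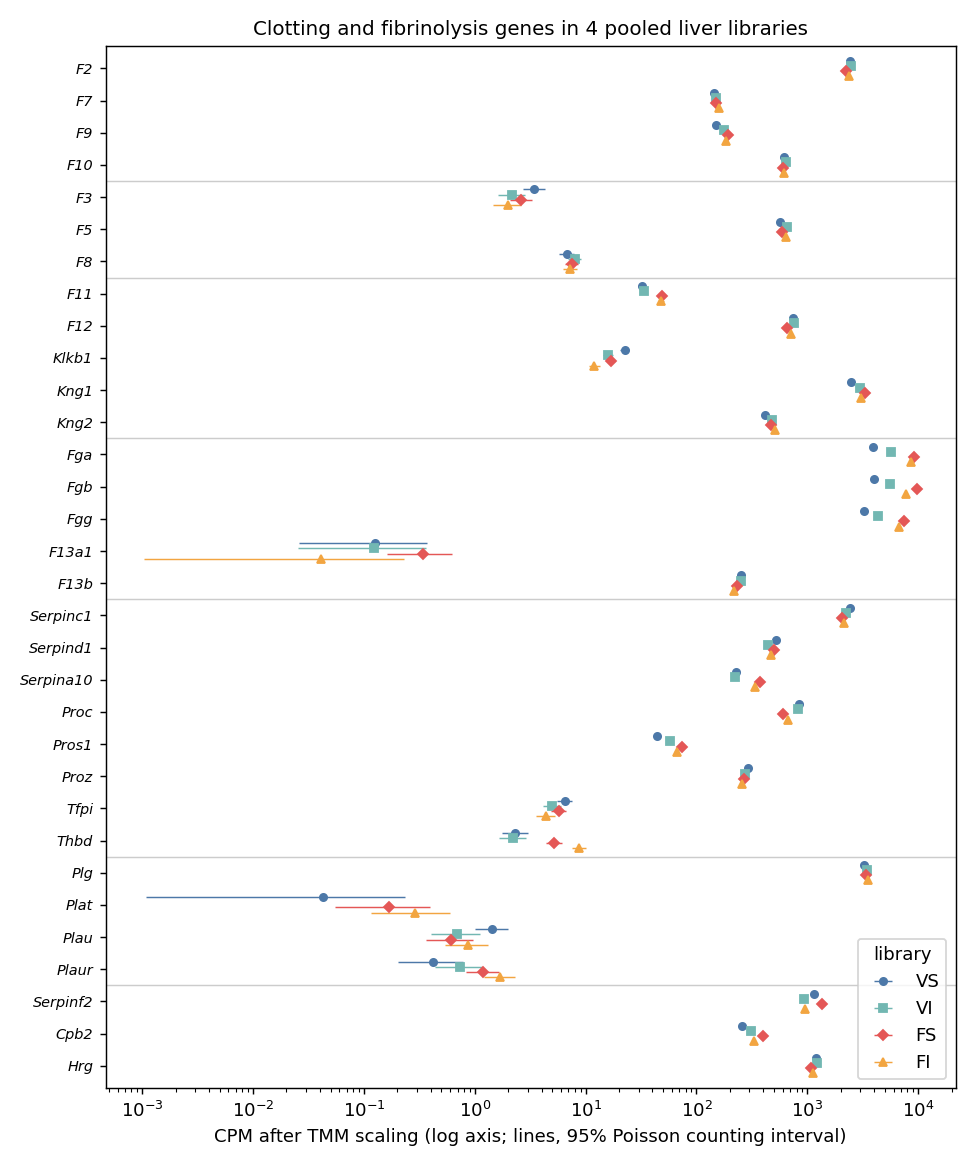
CPM of each of the 32 genes (log axis) in the VS, VI, FS and FI libraries, grouped by role, with lines for the 95% Poisson counting interval; libraries with a count of 0 have no point. Levels span from under 0.1 CPM for Plat to 9689 CPM for Fgb in FS, and Fga, Fgb and Fgg are the genes whose 4 points lie farthest apart among the abundant genes.

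The comparisons of livers with and without fibrils were FS versus VS and FI versus VI, and those of trained and sedentary livers were VI versus VS and FI versus FS. VS serves both VI versus VS and FS versus VS, and the FI library likewise enters 2 comparisons, so these are not independent. With 1 library per group no difference between 2 libraries can be tested: values are log2 ratios with 95% counting intervals, which leave out the spread between mice, and genes were counted as beyond 2-fold or beyond 1.5-fold. Of the 32 genes, 30 reached 1 CPM in at least 1 library and were counted among 12180 such genes. F13a1 and Plat did not reach it, and Plau and Plaur passed only through VS and through FS and FI, the libraries in which they were highest. A test was possible only for each factor over 2 libraries against 2, by edgeR's quasi-likelihood test in an additive model of amyloidosis and training with 1 residual degree of freedom and Benjamini-Hochberg adjustment over 11760 genes. For each gene, this 1 residual degree of freedom is the departure from additive effects of both factors, moderated over genes. Its p-values therefore do not measure the spread between mice or between replicate libraries. The test covered 29 of the 32 genes, all but F13a1, Plat and Plau. Plaur entered it only through FS and FI, the libraries in which it was highest.

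Fibrinogen was higher in both fibril groups. In FS versus VS, the 3 fibrinogen chains, Thbd and Plaur were more than 2-fold higher and Plau more than 2-fold lower, which is 6 of 30 genes (20%) beside 5.8% of all genes, and for the 5 higher ones 16.7% beside 3.6%. Plau and Plaur passed the filter on low levels only through the libraries in which they were highest. At a minimum of 5 CPM in 1 library 4 of 27 genes (14.8%) were beyond 2-fold, beside 3.78% of all genes. These 4 include Thbd, which reached 5 CPM only in FS and FI, the libraries in which it was highest, so this share depends in part on the filter. Beyond 1.5-fold there were 10 of 30 (33.3%, against 17.6% of all genes), the others being F11, Serpina10, Pros1 and Cpb2, all higher. In FI versus VI, 2 of 30 genes (6.67%) were beyond 2-fold, Thbd and Plaur, both higher, beside 4.54% of all genes, and 4 of 30 (13.3%, against 14% of all genes) were beyond 1.5-fold, with Fga and Fgg added. Most of the group stayed near 0: the median log2 ratio of the 30 genes was 0.07 in FS versus VS and 0.04 in FI versus VI, beside 0.02 and 0.01 for all genes. In the additive model, 5 of 29 genes (17.2%) passed for amyloidosis, all higher (Thbd, Serpina10, Fga, Fgg and F11), beside 4.97% of all genes in either direction and 2.81% higher.

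Fga was at 3891, 5644, 9081 and 8662 CPM in VS, VI, FS and FI. Fgb was at 3982, 5536, 9689 and 7828 CPM. Fgg was at 3211, 4371, 7502 and 6660 CPM. All 3 chains thus stood in the same order, lowest in VS, then VI, then FI, and highest in FS, and each was higher in both fibril libraries than in both vehicle libraries. In FS versus VS the log2 ratio was 1.22 for Fga (1.21 to 1.23), 1.28 for Fgb (1.27 to 1.29) and 1.22 for Fgg (1.21 to 1.24). In FI versus VI it was 0.62 (0.61 to 0.63), 0.50 (0.49 to 0.51) and 0.61 (0.60 to 0.62). Summed over the chains, fibrinogen counts after scaling were 2.37-fold higher in FS than in VS and 1.49-fold higher in FI than in VI. By edgeR's quasi-likelihood test, Benjamini-Hochberg adjusted, Fga (0.91, SE 0.19, adjusted p = 0.0311) and Fgg (0.91, SE 0.19, adjusted p = 0.0311) rose with amyloidosis over both training states, while Fgb, at nearly the same log2 change (0.89, SE 0.21), had an adjusted p of 0.0528. Over 8 alternative settings the adjusted p of Fgb ranged from 2.8e-06 to 0.152, below 0.05 in 5 of them, and those of Fga and Fgg reached 0.142 and 0.123 when amyloidosis was the only factor.

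**Figure D2:**
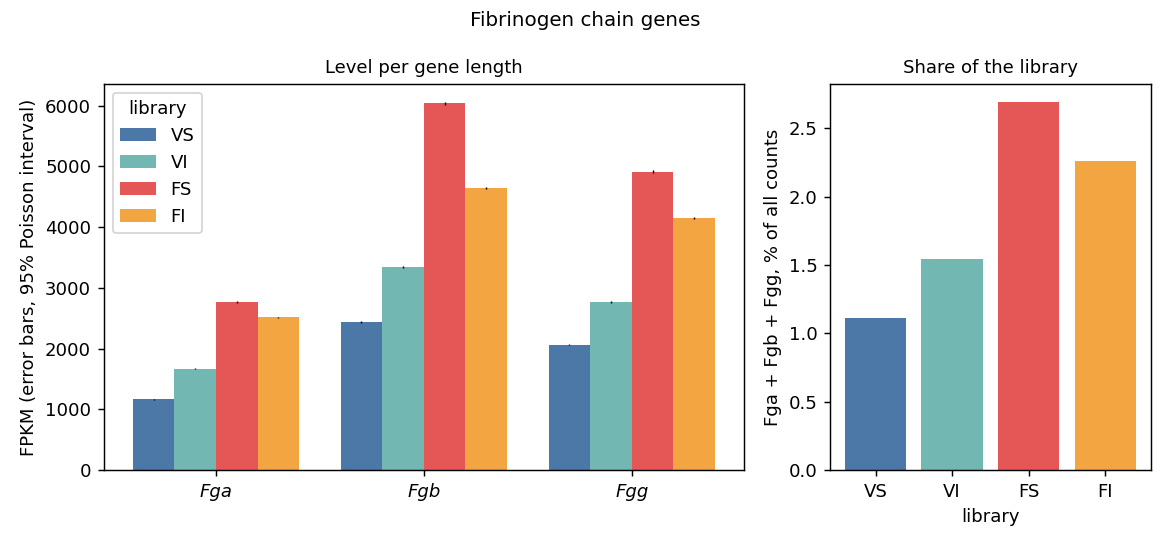
Bars give the FPKM of Fga, Fgb and Fgg in VS, VI, FS and FI, with error bars for the 95% Poisson counting interval (left), and the share of the 3 chains in all counts in percent (right). Each chain is lowest in VS and highest in FS, and the share runs from 1.12% in VS to 2.69% in FS.

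Of the remaining genes of the fibrin clot, F13b did not follow fibrinogen and F13a1 had too few counts to compare. F13b, the carrier subunit of factor XIII, was at 251 CPM in VS and VI, 231 in FS and 218 in FI, with log2 ratios of −0.13 and −0.20 for the fibril groups (adjusted p = 0.447, quasi-likelihood test of edgeR, Benjamini-Hochberg adjusted). F13a1, its catalytic subunit, was near the counting floor, with 3, 3, 10 and 1 counts, and no fold is given. The 12 megakaryocyte or platelet markers summed to 19.7, 23.1, 27.2 and 34.6 CPM, with Gp6 at 0 in every library.

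Among the anticoagulants, the receptor Thbd and the protein Z-dependent inhibitor Serpina10 were higher in fibril-injected livers, whereas Proc was lower and antithrombin differed little. Thbd (chromosome 2, 148404466 to 148408188) encodes thrombomodulin, the receptor that turns thrombin into an activator of protein C, and had 55, 54, 154 and 211 counts in VS, VI, FS and FI, or 2.33, 2.22, 5.22 and 8.72 CPM. Both fibril libraries were above both vehicle libraries, and FI was the highest. The log2 ratio was 1.15 in FS versus VS (0.71 to 1.63) and 1.97 in FI versus VI (1.54 to 2.43), and Thbd rose with amyloidosis in edgeR's quasi-likelihood test, Benjamini-Hochberg adjusted (1.57, SE 0.26, adjusted p = 0.0142, and between 9.6e-09 and 0.106 over 8 alternatives). For training its log2 ratio was −0.07 for VI over VS (−0.64 to 0.50). Thbd is an endothelial gene, and the summed CPM of 12 sinusoidal endothelial markers, among which none was at 0, was 355, 349, 305 and 375 in VS, VI, FS and FI. Of these 12 markers, 1 passed for amyloidosis, Lyve1, beside 4.97% of all genes. Lyve1, a hyaluronan receptor of sinusoidal and lymphatic endothelium, was at 0.678, 1.03, 1.83 and 6.57 CPM (log2 change 2.16, adjusted p = 0.0148, quasi-likelihood test of edgeR). In FS versus VS, 8 of the 12 lay below 0 (median log2 ratio −0.20), beside 5847 of all 12180 genes. In FI versus VI, 5 of the 12 lay below 0 (median 0.14), beside 5934 of all 12180 genes. In bulk tissue, a different number of cells of a type and a different amount of RNA per cell cannot be told apart.

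Serpina10 (chromosome 12, 103614786 to 103631444) encodes the protein Z-dependent protease inhibitor, which blocks factor Xa, and was at 228, 223, 377 and 334 CPM in VS, VI, FS and FI. The fibril libraries lay together above the vehicle libraries, which differed by less than counting error. Its log2 ratio was 0.72 in FS versus VS (0.68 to 0.77) and 0.58 in FI versus VI (0.53 to 0.63), and it rose in edgeR's quasi-likelihood test, Benjamini-Hochberg adjusted (0.65, SE 0.12, adjusted p = 0.0223, and between 4.1e-05 and 0.123 over 8 alternatives). For training its ratio was −0.03 with vehicle (−0.08 to 0.02) and −0.17 with fibrils (−0.21 to −0.13). Proz, which encodes the cofactor protein Z, did not share this, at 289, 275, 267 and 257 CPM (adjusted p = 0.64, edgeR).

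Pros1 and Proc, which encode protein S and the protein C it assists, stood on opposite sides of their VS level in FS. Pros1 (chromosome 16, 62854307 to 62929346) was at 43.9, 58.0, 73.8 and 66.4 CPM in VS, VI, FS and FI, the same order as for fibrinogen, with log2 ratios of 0.75 in FS versus VS (0.64 to 0.86) and 0.20 in FI versus VI (0.09 to 0.30). For training it was at 0.40 with vehicle (0.29 to 0.52) and −0.15 with fibrils (−0.25 to −0.06). Proc was at 838, 824, 605 and 671 CPM, lower in both fibril libraries, with log2 ratios of −0.47 (−0.50 to −0.44) and −0.30 (−0.33 to −0.27). Neither passed in edgeR's quasi-likelihood test, Benjamini-Hochberg adjusted (Pros1 0.47, SE 0.15, adjusted p = 0.115, and Proc −0.39, SE 0.13, adjusted p = 0.139).

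The serpins that act on thrombin had log2 ratios between −0.25 and 0.08 in the fibril comparisons. Serpinc1, antithrombin, was at 2421, 2213, 2037 and 2133 CPM in VS, VI, FS and FI, highest in VS, with a log2 ratio of −0.25 in FS versus VS and −0.05 in FI versus VI (adjusted p = 0.583, quasi-likelihood test of edgeR). Serpind1, heparin cofactor II, was at 525, 444, 501 and 470 CPM, higher in both sedentary than in both trained libraries, with log2 ratios for training of −0.24 with vehicle (−0.28 to −0.21) and −0.09 with fibrils (−0.13 to −0.06), and it did not pass for training (adjusted p = 0.607, quasi-likelihood test of edgeR). Its span lies wholly inside Pi4ka on the opposite strand (between 42.8 and 59.1 CPM), and whether strand was used in counting is not given in the available sources. Serpinc1, F5 and Plg share exon bases with genes on the opposite strand, which had at most 85 counts in any library. Tfpi, the inhibitor of tissue factor and factor VIIa, was low, at 6.48, 4.97, 5.72 and 4.38 CPM.

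In the contact system, F11 was higher with amyloidosis and the other genes did not pass. F11 (chromosome 8, 45241170 to 45262031), the factor that activates factor IX, was at 32.1, 33.6, 48.6 and 48.3 CPM in VS, VI, FS and FI. The groups separated by fibrils alone: both vehicle libraries and both fibril libraries differed from each other by less than counting error. The log2 ratio was 0.60 in FS versus VS (0.47 to 0.73) and 0.52 in FI versus VI (0.39 to 0.65), and F11 rose in edgeR's quasi-likelihood test, Benjamini-Hochberg adjusted (0.56, SE 0.11, adjusted p = 0.0311). For training its ratio was 0.06 with vehicle (−0.08 to 0.21) and −0.01 with fibrils (−0.12 to 0.10). The amyloidosis call was lost in DESeq2 (adjusted p = 0.0946) and with amyloidosis as the only factor (adjusted p = 0.145).

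Kng1 and Kng2 encode kininogens, the cofactors of the contact system from which bradykinin is released. Kng1 was at 2476, 2977, 3287 and 3074 CPM in VS, VI, FS and FI, and Kng2 at 415, 478, 472 and 510 CPM. Both were lowest in VS, with log2 ratios in FS versus VS of 0.41 and 0.18 and in FI versus VI of 0.05 and 0.09, and neither passed (adjusted p = 0.455 and 0.585, quasi-likelihood test of edgeR). They share 4.93% and 5.29% of their 100-base stretches, so reads there may be placed on either. F12, which starts the contact pathway, was at 744, 758, 661 and 716 CPM.

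Klkb1, the gene of plasma prekallikrein, was at 22.4, 15.9, 17.0 and 11.99 CPM in VS, VI, FS and FI, highest in VS and lowest in FI. Its log2 ratios were −0.40 in FS versus VS, −0.41 in FI versus VI, −0.49 for training with vehicle and −0.51 for training with fibrils, and it passed for neither factor in edgeR's quasi-likelihood test, Benjamini-Hochberg adjusted (adjusted p = 0.131 for amyloidosis and 0.146 for training). The value is uncertain: the listed span of Cyp4v3 on the same strand covers 99.1% of that of Klkb1. The identifier listed here as Klkb1 bears the name Gm45753 in GENCODE M21. Of its 100-base stretches, 89.8% occur in transcripts of another identifier, which GENCODE M21 names Klkb1. These levels and ratios may therefore not be those of the whole prekallikrein gene. Cyp4v3, a fatty acid hydroxylase gene, was at 232, 220, 174 and 164 CPM in VS, VI, FS and FI, likewise highest in VS and lowest in FI.

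The vitamin K-dependent factors and the cofactors had smaller ratios, and none was beyond 1.5-fold with fibrils. F2, prothrombin, was at 2426, 2470, 2243 and 2356 CPM in VS, VI, FS and FI, F10 at 619, 642, 607 and 622 CPM and F7 at 144, 149, 150 and 160 CPM. F9 was the one with the widest range, at 149, 176, 194 and 184 CPM, with a log2 ratio of 0.38 in FS versus VS (0.32 to 0.44) and 0.06 in FI versus VI. None of these 4 passed for amyloidosis, with adjusted p from 0.368 for F9 to 0.883 for F10 in edgeR's quasi-likelihood test, Benjamini-Hochberg adjusted. F7, F10 and Proz lie side by side on chromosome 8, with 1.498 kb between F7 and F10 and 4.231 kb between F10 and Proz, and their log2 ratios were between −0.11 and 0.10 in both fibril comparisons.

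F5, the cofactor of factor Xa, was at 563, 653, 589 and 640 CPM in VS, VI, FS and FI, higher in both trained than in both sedentary libraries, with log2 ratios for training of 0.21 and 0.12 (adjusted p = 0.606, quasi-likelihood test of edgeR). F8, the cofactor of factor IXa, was at 6.78, 7.96, 7.49 and 7.23 CPM, with intervals that include 0 in every comparison. F3, tissue factor, which starts clotting at a wound, was at 3.43, 2.18, 2.61 and 1.98 CPM, highest in VS. Its log2 ratio was −0.39 in FS versus VS (−0.86 to 0.07) and −0.13 in FI versus VI (−0.73 to 0.46).

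Plasminogen was within 0.09 of 0 on the log2 scale in every comparison, whereas its rare activators and their receptor differed more. Plg was at 3221, 3422, 3379 and 3512 CPM in VS, VI, FS and FI. Plaur (chromosome 7, 24462500 to 24475873), the urokinase receptor, had 10, 18, 35 and 41 counts, or 0.423, 0.739, 1.19 and 1.70 CPM, and was higher in both fibril libraries. Its log2 ratio was 1.44 in FS versus VS (0.44 to 2.66) and 1.18 in FI versus VI (0.37 to 2.08), and it did not pass (1.31, SE 0.40, adjusted p = 0.101, quasi-likelihood test of edgeR, Benjamini-Hochberg adjusted). Plaur is a gene of myeloid cells, and 4 of 11 Kupffer cell or macrophage markers (C1qa, C1qb, Lyz2, Marco) and 1 of 3 neutrophil markers tested (Prtn3) rose with amyloidosis in the same test, beside 2.81% of all genes. Their part in the level of Plaur was not tested.

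Plau, urokinase, had 34, 17, 18 and 21 counts in VS, VI, FS and FI and was highest in VS. Its log2 ratio was −1.22 in FS versus VS (−2.15 to −0.37) and 0.31 in FI versus VI (−0.68 to 1.33), so the difference was seen only against VS, the library with the most skeletal muscle transcripts, whose part was not tested. Plat, tissue plasminogen activator, had 1, 0, 5 and 7 counts, at or near the floor, and no fold is given.

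Of the 3 genes that hold fibrinolysis back, Cpb2 (chromosome 14, 75242287 to 75283551), the carboxypeptidase that protects fibrin from plasmin, was at 256, 308, 402 and 333 CPM in VS, VI, FS and FI. It was highest in FS, with a log2 ratio of 0.65 in FS versus VS (0.61 to 0.70) and 0.11 in FI versus VI (0.06 to 0.16), 0.27 for training with vehicle (0.22 to 0.32) and −0.27 with fibrils (−0.31 to −0.23), and it did not pass (adjusted p = 0.202, quasi-likelihood test of edgeR, Benjamini-Hochberg adjusted). Serpinf2, the plasmin inhibitor α2-antiplasmin, was at 1148, 930, 1346 and 957 CPM, lower in both trained than in both sedentary libraries. Hrg, histidine-rich glycoprotein, which binds plasminogen and heparin, was at 1188, 1222, 1072 and 1115 CPM.

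**Figure D3:**
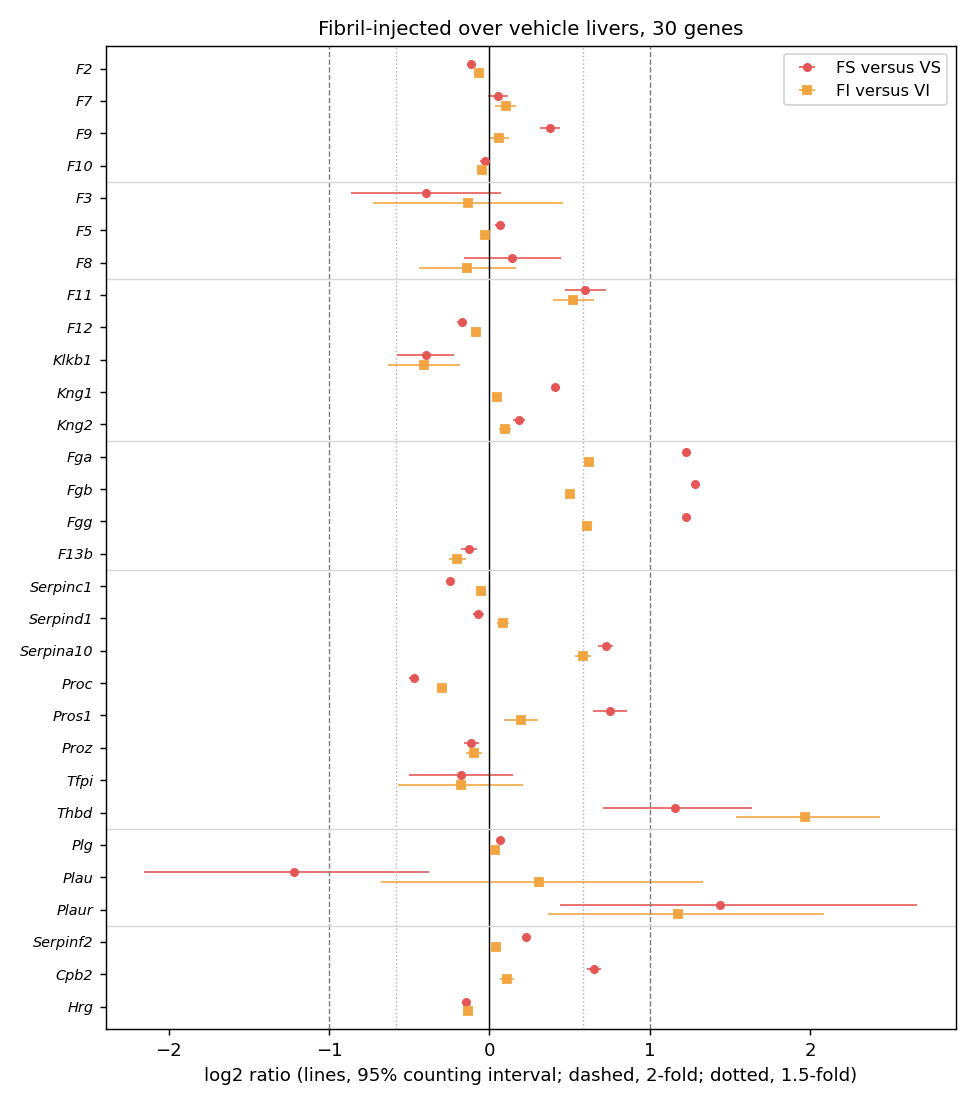
Log2 ratios of FS versus VS and FI versus VI for the 30 genes with at least 1 CPM in 1 library, with lines for 95% counting intervals, grouped by role. Thbd, Plaur, Fga, Fgg, Serpina10 and F11 lie above 0.50 in both comparisons, and Fgb lies at 1.28 in FS versus VS and 0.4996 in FI versus VI. Pros1, Cpb2 and Kng1 lie farther from 0 in FS versus VS than in FI versus VI.

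**Figure D4:**
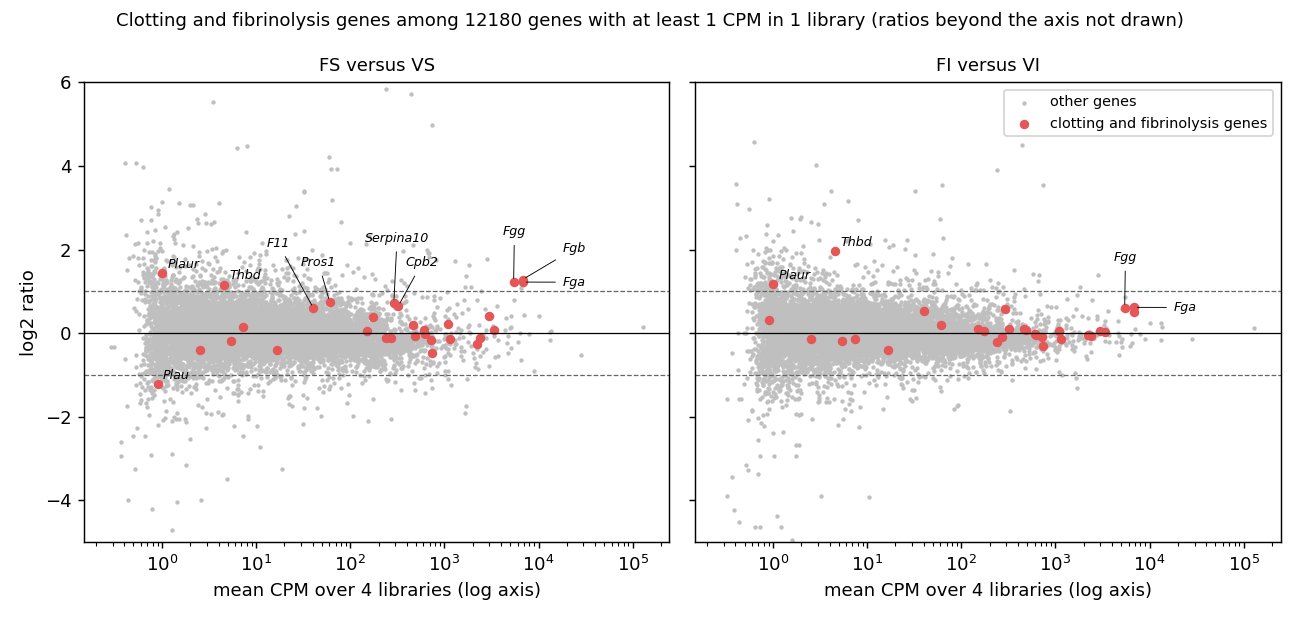
Log2 ratio against mean CPM over the 4 libraries (log axis) for 12180 genes in FS versus VS and FI versus VI, with the clotting and fibrinolysis genes in red and dashed lines at 2-fold. Fga, Fgb and Fgg lie above the 2-fold line in FS versus VS, with ratios of 1.22 to 1.28, while Thbd, Plaur and Plau lie in the wider cloud of low levels.

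No gene of the group passed for training in the additive model: 0 of 29 were called in edgeR's quasi-likelihood test, Benjamini-Hochberg adjusted, beside 1.48% of all genes. At an unadjusted p under 0.05 there were 2, Klkb1 (−0.50, SE 0.14) and Serpinf2 (−0.40, SE 0.14), and DESeq2 and limma-voom called 0. The gene listed as Klkb1 has the uncertain identifier described above. For training, 14.7% of all 11760 genes had an unadjusted p under 0.05, beside 6.9% (2 of 29) here. For amyloidosis it was 11 of 29 (37.9%), beside 21.4% of all genes. These 11 include Plaur, which entered the test only through FS and FI, the fibril libraries in which it was highest. By size, VI versus VS had 1 of 30 genes beyond 2-fold (3.33%, against 3.44% of all genes), Plau at −1.02 (−1.98 to −0.16), and 3 beyond 1.5-fold (10%, against 11.6%), with F3 at −0.65 (−1.18 to −0.14) and Plaur at 0.77 (−0.39 to 2.08). In FI versus FS, which does not contain VS, Plau was at 0.50 (−0.47 to 1.5), F3 at −0.39 (−0.95 to 0.14) and Plaur at 0.51 (−0.17 to 1.21). FI versus FS had 0 of 30 beyond 2-fold (4.28% of all genes) and 1 beyond 1.5-fold (3.33%, against 13.5%), Thbd at 0.74 (0.44 to 1.05). These shares are near or under those of all genes. The median log2 ratio of the 30 genes was 0.04 for VI over VS and −0.05 for FI over FS, beside 0.00 for all genes in both.

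Serpinf2 was lower in trained livers of both kinds, with log2 ratios of −0.30 for VI over VS (−0.33 to −0.28) and −0.49 for FI over FS (−0.51 to −0.47), although it did not pass (adjusted p = 0.241, quasi-likelihood test of edgeR, Benjamini-Hochberg adjusted). Tfpi had −0.38 in both, with intervals from −0.74 to −0.03 and from −0.75 to −0.03.

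Fibrinogen stood on different sides of 0 in the 2 training comparisons. In VI versus VS, Fga was at 0.54 (0.52 to 0.55), Fgb at 0.48 (0.46 to 0.49) and Fgg at 0.44 (0.43 to 0.46), and in FI versus FS they were at −0.07 (−0.08 to −0.06), −0.31 (−0.32 to −0.30) and −0.17 (−0.18 to −0.16). Summed over the chains, fibrinogen was 1.40-fold higher in VI than in VS and at 0.881 of FS in FI. The training ratio with fibrils minus that without was −0.60 for Fga, −0.78 for Fgb, −0.62 for Fgg, −0.55 for Pros1, −0.54 for Cpb2, −0.36 for Kng1 and −0.32 for F9. Thbd went the other way, at 0.81 (0.19 to 1.43). With 1 library per group these differences have counting error only and could not be tested.

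**Figure D5:**
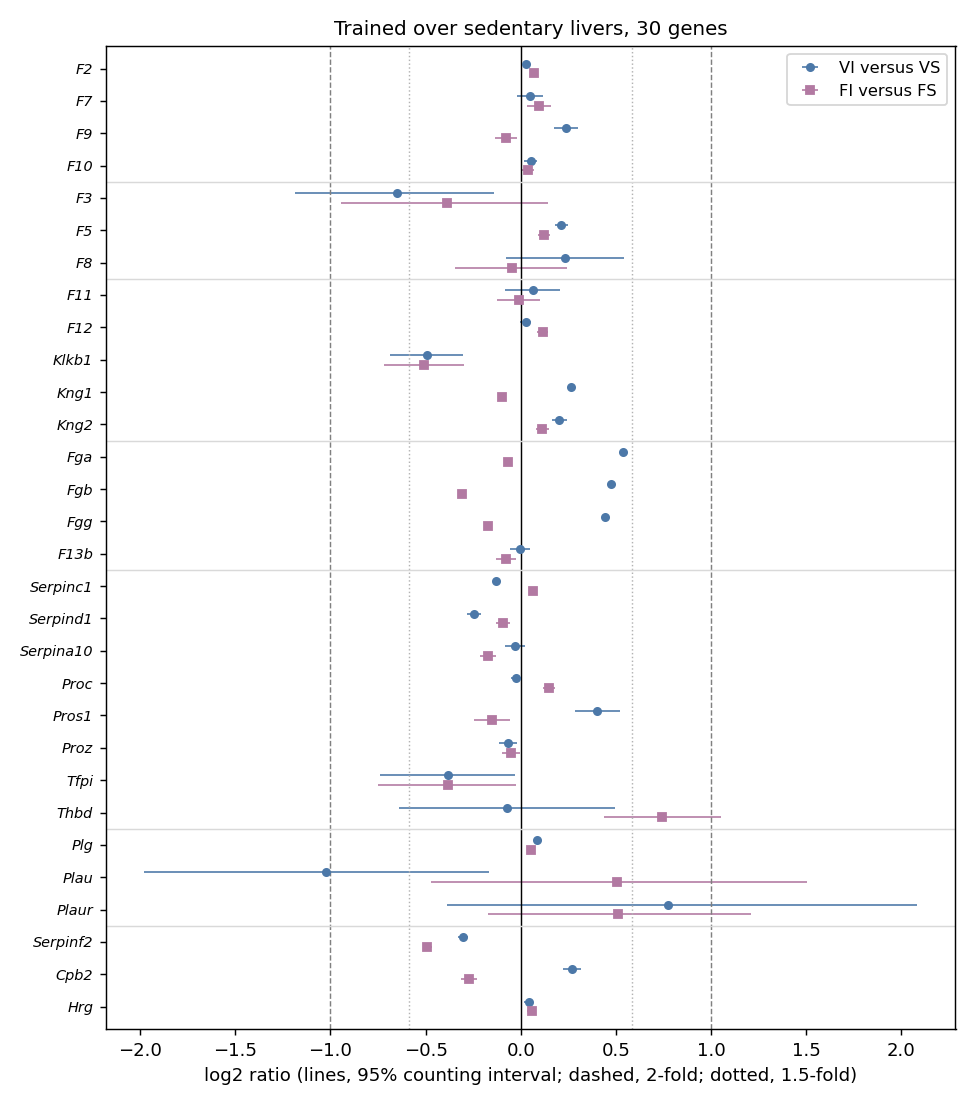
Log2 ratios of VI versus VS and FI versus FS for the 30 genes with at least 1 CPM in 1 library, with lines for 95% counting intervals, grouped by role. Fga, Fgb, Fgg, Pros1, Cpb2, Kng1 and F9 lie above 0 in VI versus VS and below 0 in FI versus FS, and Thbd is the highest in FI versus FS at 0.74.

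Read across the 4 libraries, 8 of the 30 genes (26.7%) stood in the order VS, VI, FI, FS from low to high, which are Fga, Fgb, Fgg, Kng1, F9, F11, Pros1 and Cpb2. Of all 12180 genes, 7.04% had this order, which was looked at after the levels of fibrinogen were known. Fga, Fgb and Fgg, from which the order was taken, are themselves counted in the 26.7%. That share therefore depends in part on how the order was chosen, and its excess over 7.04% was not tested. For F11 the steps from VS to VI and from FI to FS were within counting error. Lowest in FS, then FI, VS and VI were F2, F12 and Hrg (10% of the 30, beside 5.5% of all genes), and lowest in FS, then FI, VI and VS were Proc and Serpinc1 (6.67% beside 5.93%).

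Lists of other genes around clotting were counted in the same way. Of 12 acute phase genes that are no clotting factors, 5 passed for amyloidosis, all higher, beside 2.81% of all genes. The median log2 ratio of the 12 was 1.70 in FS versus VS and 0.76 in FI versus VI, beside 0.02 and 0.01 for all genes. Among the 5 was Saa2, an acute phase serum amyloid A gene with a near-identical neighbour in Saa1, at 9.95, 51.1, 523 and 1164 CPM in VS, VI, FS and FI. Among further inhibitors of clotting and fibrinolysis, Serpina1d, of the α1-antitrypsin family (0.73, adjusted p = 0.0225), and Serpina1e of the same family (0.83, adjusted p = 0.00663) rose in edgeR's quasi-likelihood test, Benjamini-Hochberg adjusted. The Serpina1 genes are near-identical copies, and reads may be split between them.

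Of 8 receptors and cell-surface proteins of fibrinolysis tested, 1 rose with amyloidosis, S100a10, beside 2.81% of all genes. S100a10, the plasminogen-binding partner of annexin A2, was at 12.3, 11.6, 41.1 and 18.2 CPM in VS, VI, FS and FI (1.21, adjusted p = 0.0478, quasi-likelihood test of edgeR). None of 9 genes of the vitamin K cycle and of factor export and none of 14 genes of platelet adhesion, contact and plasma carriers passed for amyloidosis in this test, beside 4.97% of all genes. All 9 of the former had a log2 ratio above 0 in FS versus VS, with a median of 0.24, and 8 of 9 in FI versus VI, with a median also of 0.24. Of all 12180 genes, 6333 were above 0 in FS versus VS and 6246 in FI versus VI, with medians of 0.02 and 0.01. Among the latter, the fibrinogen-like gene Fgl1, a hepatocyte-secreted acute phase product, was at 545, 1331, 1798 and 1526 CPM, the order of fibrinogen, with an adjusted p of 0.272 (edgeR). Of 12 liver transcription factors, 2 rose with amyloidosis in the test of edgeR, beside 2.81% of all genes. They were Stat3 (134, 135, 210 and 184 CPM, adjusted p = 0.040, edgeR) and Cebpd (8.51, 11.9, 19.6 and 26.8 CPM, adjusted p = 0.0051, edgeR). The other 2 that passed fell, beside 255 of all 11760 genes. They were Foxa2 (37.5, 36.5, 24.5 and 20.7 CPM, adjusted p = 0.0156, edgeR) and the oestrogen receptor gene Esr1 (log2 change −0.76, adjusted p = 0.0114, edgeR). Cebpa, another C/EBP gene, was at 618, 402, 421 and 367 CPM and did not pass (adjusted p = 0.212, edgeR). The part of these factors in the level of fibrinogen was not tested. For training, 0 genes of these 6 lists passed, beside 1.48% of all genes.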

How the data were processed

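Liver RNA of 4 pools of 4 mice was sequenced as 1 library per group (VS, VI, FS, FI). The authors deposited raw counts per gene and FPKM values, made from the counts, the listed gene length and the library total: all 69722 FPKM values above 0 lay within 0.1% of a recomputed value. The submitters' processing notes name fastp 0.23.2, STAR 2.5, HTSeq 0.6.1 and mm10, without roles. The strand setting of the counting, and the dispersion the authors used when they tested single libraries with edgeR, are not given in the available sources.

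Counts were joined by Ensembl identifier. Ratios used R 4.3.3, edgeR 4.0.16 (TMM), a prior of 0.5 counts, exact conditional binomial (Clopper-Pearson) intervals at 95%, which cover counting error only, and the 12180 genes that reached 1 CPM in some library. The additive model used edgeR's robust quasi-likelihood fit with TMM factors recomputed on the 11760 genes that reached 1 CPM in 2 or more libraries, a threshold of 0.05 and Benjamini-Hochberg adjustment, and was tested on simulated data. The 32 genes and all lists were chosen with earlier results of these data known, and levels of all 32 are given. Full ratios were given for genes beyond 1.5-fold in a comparison, and others by level or in part. Of further lists, at most 6 genes with the largest fibril ratio at 5 CPM or more were named, and Cyp4v3, Pi4ka and single marker genes were chosen after their values were seen. Adgre1, a macrophage marker, was not analysed here. One result of the list of further inhibitors is not reported here, so its number of calls for amyloidosis is left out. Alternatives were DESeq2 1.42.0, limma-voom (limma 3.58.1), total counts, FPKM with pseudocounts of 1 and 0.1, other filters and single-factor fits. Python 3.11.15 and matplotlib 3.10.9 served for the figures. The promoter sequences are from RefSeq (GRCm38.p6), and 15 of the 32 genes have the same start and end in GENCODE M21.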

Additional observations from a re-analysis of the deposited data

Results flagged for a closer look

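In 8 of the 30 genes, both training ratios had counting intervals that exclude 0 but on opposite sides, and 1 gene did so for both fibril ratios. That is 26.7% and 3.33%, beside 6.61% and 4.67% of all 12180 genes, and counting intervals are narrower for abundant genes such as most of these. None of these differences could be tested, since each group is 1 library. The training ratio in fibril-injected livers minus that in vehicle livers was −0.60 for Fga, −0.78 for Fgb, −0.62 for Fgg, −0.55 for Pros1, −0.54 for Cpb2, −0.36 for Kng1 and −0.32 for F9, where training went with a higher level in vehicle and a lower level in fibril-injected livers. Serpinc1, antithrombin, had the opposite sign at 0.20, with ratios of −0.13 (vehicle) and 0.07 (fibrils). The fibril ratio of Serpind1, heparin cofactor II, was −0.07 in sedentary and 0.08 in trained livers, a difference of 0.15.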

How the results depend on the processing

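No paired analysis was possible because the labels give no replicate numbers and each group is 1 library, and leaving a library out would leave the additive model without residual degrees of freedom. No result reversed its sign. In FS versus VS, 6 of 30 genes beyond 2-fold became 3 with FPKM and a pseudocount of 1 (10%, beside 1.99% of all genes). In FI versus VI, 2 became 1 with the same pseudocount (3.33%, beside 1.14%). In VI versus VS, 1 became 0 with either FPKM pseudocount, beside 0.878% of all genes with 1 and 2.21% with 0.1. Without a filter on low counts (32 genes), the number beyond 2-fold was 2 for VI over VS, 1 for FI over FS, 4 for FI over VI and 8 for FS over VS (25%), beside 20.2%, 20.9%, 21% and 22.9% of all genes. With a minimum of 5 CPM (27 genes), the number was 0 for VI over VS, beside 1.54% of all genes. For FI over VI it was 1 (3.7%, beside 2.45%), Thbd, which reached 5 CPM only in FS and FI. At 1.5-fold, of 30 genes, the numbers were 3, 1, 10 and 4 for VI over VS, FI over FS, FS over VS and FI over VI. The shares of all genes were 11.6%, 13.5%, 17.6% and 14% in this order. The median of FI versus FS was −0.12 with total counts, −0.10 with FPKM and a pseudocount of 1 and −0.11 with 0.1. In the additive model, amyloidosis called 0 genes as the only factor (0.068% of all genes) and 8 without a filter (25%, beside 8.72%). Training called 1 without a filter (Klkb1, whose identifier is uncertain, beside 4.29%). The causes were not tested. With TMM factors over all listed genes, a setting chosen after seeing the data, amyloidosis called 5 of 29 (17.2%), beside 4.59% of all genes.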
